A study of Danio rerio with 12 samples.

Results

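Retinal RNA of 3 adult zebrafish libraries of the control lineage, numbered 3, 4 and 8, was described by absolute abundance across 32674 genes. They are 3 of 12 samples. The fish were of the F3 generation of the EK strain, and the control line went back to eggs kept for 24 h in the ethanol vehicle with 0 µM methylmercury (MeHg, an organic mercury compound). The study set these fish against a line whose founding eggs met 0.03 µM MeHg, and neither line met added MeHg after that. The samples of that line enter no value here. The labels name 6 control samples as biological replicates but do not say whether a library came from 1 fish or several, so the spread below is that between libraries. Sex, age beyond adult, light regime and time of collection are not given in the labels. Values are FPKM, fragment numbers divided by gene length and by library size, so that levels of different genes compare per length.

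The 3 libraries were chosen by their low egg-coat transcripts. The egg-coat gene zp3.2 stood at 2.46, 0.203 and 0 FPKM in libraries 3, 4 and 8, against 415 and 716 FPKM in control libraries 5 and 7, which were left out. The list of 18 oocyte genes, which holds the egg-coat genes, took 0.00104%, 0.000318% and 0.000236% of summed FPKM in libraries 3, 4 and 8, against 0.232% and 0.515% in control libraries 5 and 7. These values follow from the choice of libraries and carry no finding. All 3 libraries were shallow, with 3470515, 4160991 and 2838155 fragments assigned to genes, and a count of 0 allows a share of up to 8.64e-05%, 7.21e-05% and 0.000106% of them (3 fragments). This limit covers counting error only.

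The vertebrate retina turns light into a nerve signal in rods and cones. In a photoreceptor an opsin activates the G protein transducin, which switches on a phosphodiesterase. The fall in cyclic GMP closes cation channels of the outer segment, and a kinase and an arrestin then silence the opsin. Bipolar cells carry the signal from the photoreceptors' ribbon synapses to ganglion cells, and horizontal and amacrine cells shape it. Müller glia span the tissue, and the pigment epithelium behind it rebuilds the chromophore for the opsins. Zebrafish keep many genes as a pair of copies, named a and b, from a genome duplication in the ancestor of teleost fish.

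Photoreceptor genes were present in these libraries. Of the rod list all 19 matched genes, and of the cone list all 25, averaged at least 1 FPKM, against 17764 of all 32674 genes. All matched genes of the microglia (15), vascular (12) and cornea and skin (11) lists reached this level too. Reaching it therefore does not set retina apart from other tissue. Of 55 lens crystallin genes, 38 had no fragment in any of the 3 libraries, against 9204 of all 32674 genes. The family took 0.003% of summed FPKM.

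Library 8 stood apart in epithelial genes. The list of cornea and skin markers took 0.407% and 0.342% of summed FPKM in libraries 3 and 4 and 1.43% in library 8, and 7 of its 11 genes were highest there, against 30.6% of the 17764 genes that averaged 1 FPKM or more. The keratin gene krt5, which marks surface epithelia, read 1057, 824 and 4614 FPKM in libraries 3, 4 and 8, and krt91 read 1029, 970 and 4838 FPKM. anxa1a, an annexin gene, read 138, 114 and 513 FPKM. The other 4 genes of the list were highest in library 3. Among them, the keratin gene krt15 read 499, 281 and 179.7 FPKM and was lowest in library 8. In control libraries 5 and 7 the same list took 0.951% and 1.18%. Across these 17764 genes, libraries 3 and 4 were closest, with a Pearson r of 0.937 and a Spearman rho of 0.928 on log2 values and 92.2% of genes within 2-fold. The pairs with library 8 gave r of 0.884 (library 3) and 0.898 (library 4). These are correlations across genes, which are not independent replicates. Library 8 also had the fewest fragments. What part counting error or epithelial tissue had in these correlations and in other values of library 8 was not tested.

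The RNA was concentrated in few genes. In libraries 3, 4 and 8, 141, 171 and 145 genes made up 50% of summed FPKM, and the top 10 alone held 28.5%, 25.0% and 24.6%. At the other end 9204 genes had no fragment in any library. At least 1 FPKM in every library was reached by 15569 genes, at least 10 FPKM by 6461, at least 100 FPKM by 684 and at least 1000 FPKM by 42. Counted by fragments, with no scaling to length, 50% took 559, 554 and 583 genes, so the FPKM scale put more of the total on fewer, shorter genes. In libraries 3 and 4 the top 10 included ENSDARG00000081369, a gene without a symbol that rested on 3 fragments and 1 fragment. Genes with a length under 50 bases by the ratio of fragments to FPKM held 9.97%, 6.59% and 4.57% of summed FPKM. In libraries 3 and 4 part of the concentration therefore rests on very few fragments.

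Of the 30 genes with the highest mean FPKM, 13 were mitochondrially encoded, 3 were rod genes and 2 were cone genes. The mitochondrial gene with the highest mean, mt-co1, a core subunit of cytochrome c oxidase, read 15493, 20745 and 24321 FPKM in libraries 3, 4 and 8. In libraries 4 and 8 mt-atp8, described below, stood higher. The 13 genes together took 9.53%, 16.8% and 19.7% of summed FPKM, or 15.3% ± 5.25 (SD, n = 3), and all 13 were lowest in library 3, as were 28.0% of all 17764 genes. By fragments they took 7.88% ± 1.8. Among nuclear genes with a symbol, rho, which encodes the rod opsin rhodopsin, was highest, with 20297, 19675 and 13852 FPKM. It was lower in library 8 than in both others.

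Genes known from photoreceptors and from energy supply were among those that followed. rbp4l, which encodes the retinol-binding protein known as purpurin in fish and chick, where photoreceptors secrete it, read 15200, 11451 and 4499 FPKM. Its highest and lowest library differed 3.38-fold, the lowest being library 8. ckbb, a brain-type creatine kinase that buffers ATP, read 11551, 9184 and 6520 FPKM. arr3a, a cone arrestin, read 8133, 8237 and 5009 FPKM. es1, which in zebrafish encodes a mitochondrial protein of cones, read 4534, 2619 and 2395 FPKM and was highest in library 3. slc25a5, the mitochondrial carrier that exchanges ADP and ATP, was steady at 2819, 2979 and 2741 FPKM. Ranks 29 and 30 went to icn, a small calcium-binding S100-type gene, at 1979.5, 831 and 4190 FPKM, and to the keratin gene krt91. Both were highest in library 8 and more than 2-fold below that in libraries 3 and 4. si:dkey-238c7.12, ranked above es1, averaged 3233 FPKM over the 3 libraries and 1490 FPKM over libraries 3 and 4 alone. ppdpfa, also in the top 30, read 3029, 3054 and 1863 FPKM.

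**Figure D1:**
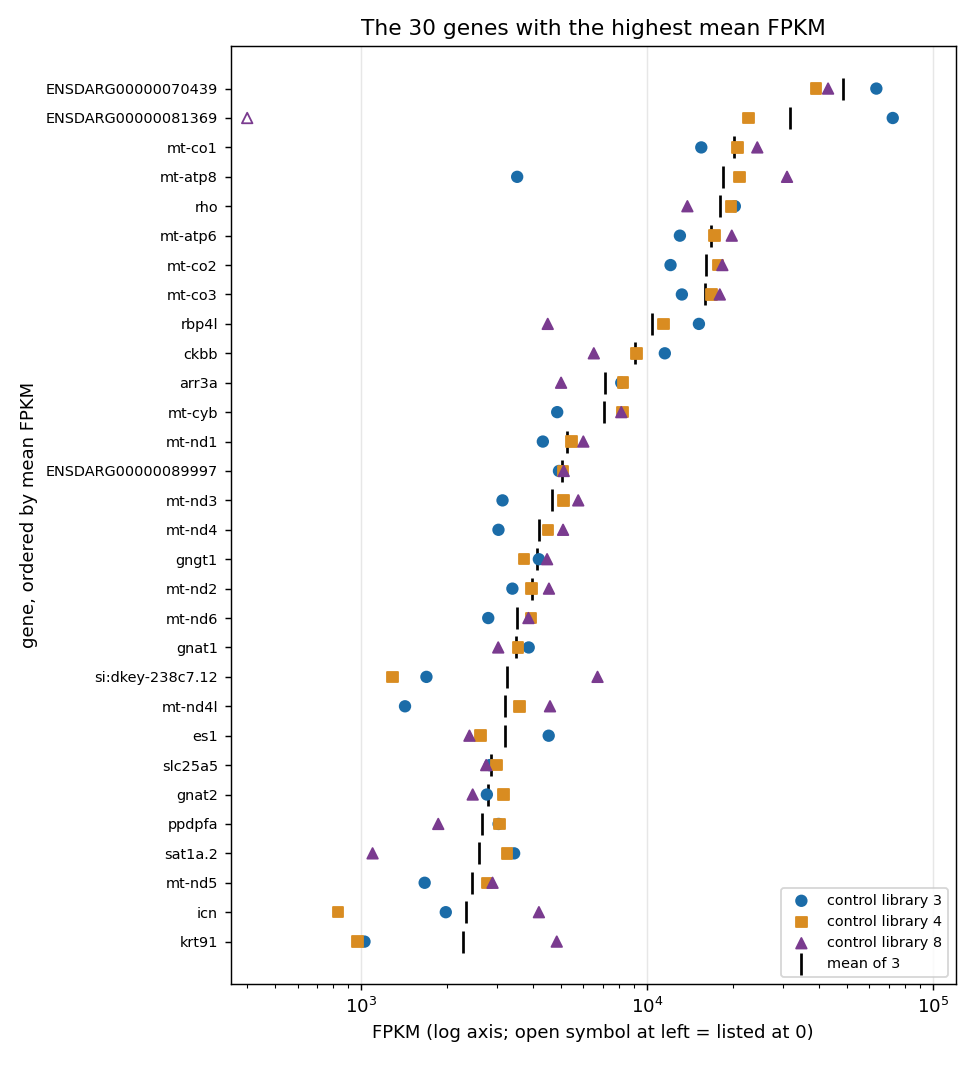
FPKM on a log axis of the 30 genes with the highest mean, from the highest at the top, one symbol per library and a black bar for the mean of libraries 3, 4 and 8. The mitochondrial genes lie lowest in library 3, rho and rbp4l lie lowest in library 8, and krt91, icn and si:dkey-238c7.12 lie highest there. The open symbol marks a gene listed at 0.

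The 2 highest ranks belong to genes with no symbol and differ in what stands behind them. ENSDARG00000070439 read 63443, 39040 and 43011 FPKM and rested on 92378, 67420 and 53123 fragments. ENSDARG00000081369 read 72397, 22684 and 0 FPKM but rested on 3, 1 and 0 fragments. The ratio of fragments to FPKM implies a gene length, and for 105 genes that length came out under 50 bases. Those genes took 9.97%, 6.59% and 4.57% of summed FPKM in libraries 3, 4 and 8 and only 0.015%, 0.054% and 0.063% of fragments. In the top 30 this touched mt-atp8, a small subunit of ATP synthase, with 3517, 21105 and 30901 FPKM on 213, 1877 and 1638 fragments. Without mt-atp8 the mitochondrial genes took 9.12%, 14.1% and 15.7%. It also touched sat1a.2, a polyamine acetyltransferase gene, with 3432, 3240 and 1098 FPKM on 142, 202 and 40 fragments. Their ranks rest on the length used in the deposited values. Genes without a symbol held 26.0%, 18.0% and 15.5% of summed FPKM and 13.4%, 12.1% and 12.2% of fragments.

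Below the top 30 the genes of the cytosolic ribosome were the largest class. Of the 100 genes with the highest mean, 25 encode ribosomal proteins, 13 are mitochondrial, 10 are on the cone list and 5 on the rod list. The 71 ribosomal protein genes took 6.61%, 4.67% and 7.18% of summed FPKM, and 69 of them were lowest in library 4. Over all 17764 genes, 29.0% were lowest in library 4. The highest ribosomal protein gene, rps2, read 1493, 994 and 1500.3 FPKM. The 25 glycolysis genes took 0.993%, 1.18% and 0.856%, led by gapdhs, a glyceraldehyde-3-phosphate dehydrogenase, at 2411, 2379 and 1833 FPKM.

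Rod genes took 4.18%, 4.44% and 3.49% of summed FPKM in libraries 3, 4 and 8, which is 4.04% ± 0.492 (SD, n = 3). Cone genes took 3.08%, 3.46% and 2.78%, or 3.11% ± 0.340. Genes shared by both photoreceptor types took 0.879%, 1.16% and 0.794%. The gene gc3 stands on this list and on the cone list and is counted in both. All 3 lists were lowest in library 8, where 16 of 19 rod genes, 17 of 25 cone genes and 28 of 35 shared genes averaging 1 FPKM or more had their lowest value. The same library was the lowest for 43.0% of all genes. rho made up 55.2% of the rod list, and without it rod genes took 1.81% ± 0.116. arr3a made up 28.5% of the cone list. In bulk RNA, fewer cells of a type and less RNA per cell cannot be told apart. Of the 22 entries on the rod list 3 were not matched, and of 36 on the cone list 11 were not, the cone phosphodiesterase gene pde6c among them, so both shares are sums over the matched genes only.

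**Figure D2:**
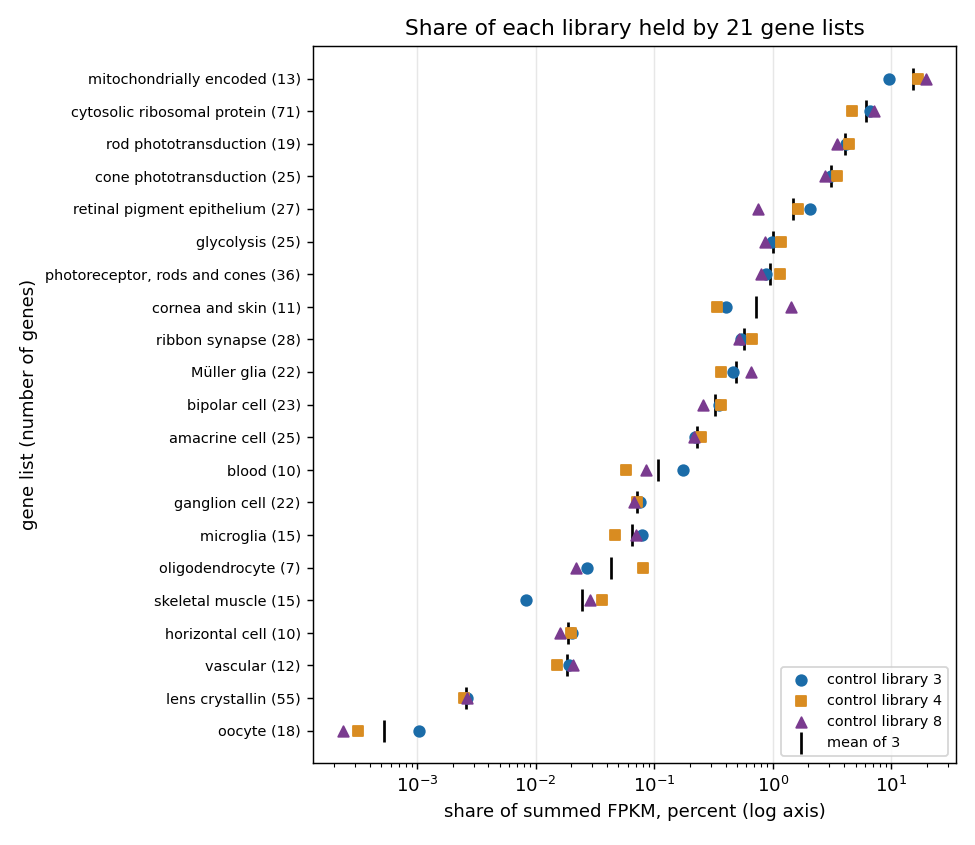
Share of summed FPKM, in percent on a log axis, held by 21 gene lists, with the number of matched genes in brackets, one symbol per library and a black bar for the mean of libraries 3, 4 and 8. Rod and cone lists sit near 4.04% and 3.11% with their libraries close together, while the cornea and skin list lies at 1.43% in library 8. The pigment epithelium list runs from 0.757% to 2.07%, and rbp4l, known from photoreceptors, makes up 85.9% of it. Without rbp4l that list took 0.300%, 0.155% and 0.173% in libraries 3, 4 and 8.

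Among the opsins, rho stood at 3.64, 3.25 and 2.11 times the sum of the 7 matched cone opsin genes in libraries 3, 4 and 8. The ultraviolet opsin gene opn1sw1 read 1814, 2198 and 1349 FPKM. The blue opsin gene opn1sw2 read 1457, 1651 and 1397 FPKM. Of the pair of red opsin genes, opn1lw2 read 1193, 1199 and 1989 FPKM and opn1lw1 read 587, 424 and 736 FPKM. Of summed cone opsin FPKM, red took 32.0%, 26.8% and 41.6%, ultraviolet 32.6%, 36.3% and 20.6%, blue 26.2%, 27.2% and 21.3%, and green 9.32%, 9.72% and 16.5%. Ultraviolet was the largest class in libraries 3 and 4, and red was the largest in library 8. The green genes stand side by side in the genome as near-identical copies and may share fragments. With that limit, opn1mw3 read 140, 222 and 732 FPKM and opn1mw4 read 270, 278 and 323 FPKM, so their order in library 8 was the opposite of that in libraries 3 and 4. opn1mw2 read 110, 89.2 and 26.9 FPKM. opn1mw1 was not matched.

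The alpha subunits of transducin were closer in level between rods and cones than the opsins were. gnat1, the rod alpha subunit, read 3859.8, 3536 and 3019.7 FPKM, and gnat2, the cone alpha subunit, read 2756, 3155 and 2458 FPKM. Their ratio was 1.40, 1.12 and 1.23, a mean of 1.25 ± 0.141 (SD, n = 3). rho stood at 5.14 ± 0.50 times gnat1. The subunits of the rod heterotrimer were not equal in RNA. gngt1, the rod gamma subunit, read 4189, 3716 and 4475 FPKM, which was 1.09, 1.05 and 1.48 times gnat1 in libraries 3, 4 and 8. gnb1a, a rod beta subunit, read 791, 677 and 606 FPKM. The ratio of gnat1 to gnb1a was 4.88, 5.22 and 4.98, or 5.03 ± 0.177. gnb1b was not matched, so rod beta subunit RNA may be incomplete. In cones, gnb3b, the beta subunit, read 2417, 1975 and 1991 FPKM and gngt2a, the gamma subunit, read 1576, 1344 and 1631 FPKM.

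Downstream of transducin the levels were lower than those of its alpha subunits. pde6a and pde6b, the catalytic subunits of the rod phosphodiesterase, read 714, 610 and 396 FPKM and 360, 440 and 266 FPKM. Their ratio was 1.62 ± 0.319. The rod channel subunits cnga1 and cngb1a read 208, 188 and 144 FPKM and 102, 99.5 and 86.0 FPKM, a ratio of 1.87 ± 0.185. All 4 genes had their lowest level in library 8.

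Of the genes that end the light response, arrestins ran above kinases. sagb, a rod arrestin, read 2106, 2310 and 1425 FPKM, and its copy saga read 891, 802 and 473 FPKM. arr3a stood at 1.46, 1.36 and 0.764 times the summed cone opsins. grk7a, a cone opsin kinase, read 631, 554 and 272 FPKM, and grk1a, a rod opsin kinase, read 369, 439 and 307 FPKM. Their ratio was 1.71, 1.26 and 0.884, so grk1a was the higher one in library 8 alone. The recoverin-type gene rcv1, of a family of calcium sensors that restrain opsin kinases, read 806, 1409 and 1038 FPKM. It held 28.9%, 39.7% and 45.7% of the FPKM of the 3 matched recoverins. zgc:73075 held 56.4%, 49.1% and 40.3%, so rcv1 led in library 8 alone. guca1c, which activates guanylate cyclase to restore cyclic GMP, read 1462, 1412 and 900.5 FPKM.

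**Figure D3:**
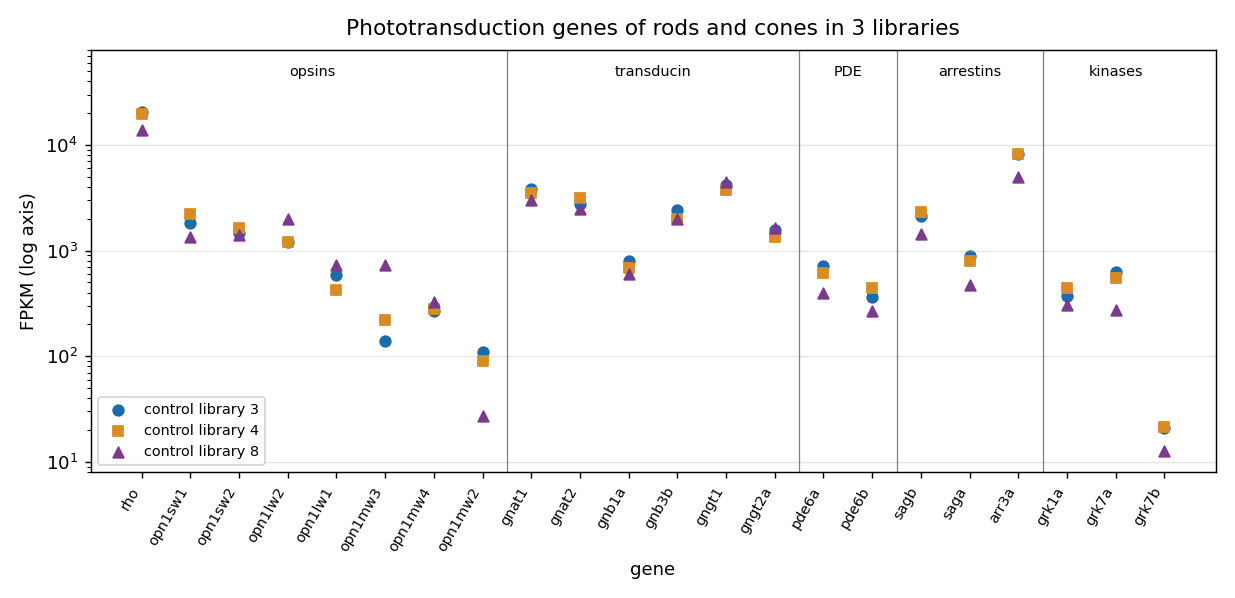
FPKM on a log axis of phototransduction genes grouped as opsins, transducin subunits, phosphodiesterase (PDE), arrestins and kinases, one symbol for each of libraries 3, 4 and 8. rho lies above every cone opsin, gnat1 and gnat2 lie at like heights, and arr3a lies above both rod arrestins. Library 8 is lowest for most genes but highest for opn1mw3, opn1mw4, opn1lw1, opn1lw2, gngt1 and gngt2a.

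Genes of outer segment structure and of the space around it lay below both transducin alpha subunits in every library. irbp, which encodes the protein that ferries retinoids between photoreceptors and pigment epithelium, read 2154, 2755 and 1362 FPKM. rom1b, a tetraspanin of the disc rim, read 916, 866 and 687 FPKM. prph2a and prph2b, copies of the disc rim gene peripherin 2, read 299, 347 and 304 FPKM and 308, 335 and 285 FPKM. Their ratio was 1.03 ± 0.0495 (SD, n = 3), and the copies overlapped across libraries. pdcb, a phosducin gene whose product binds transducin beta and gamma subunits, read 876, 1290 and 734 FPKM, and pdca read 492, 606 and 531 FPKM.

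The 27 matched genes of the pigment epithelium list took 2.07%, 1.62% and 0.757% of summed FPKM, but rbp4l, which is known from photoreceptors, made up 85.9% of that. Without rbp4l the list took 0.300%, 0.155% and 0.173%, or 0.210% ± 0.079 (SD, n = 3). rpe65a, the isomerase that remakes the chromophore, read 1090, 291 and 484 FPKM. tyrp1b, a melanin synthesis gene, read 208, 101 and 78.7 FPKM. stra6, a receptor for retinol uptake, read 228, 134 and 136 FPKM. rgra, a retinal G protein-coupled receptor gene, read 186, 87.7 and 94.9 FPKM. Of the 26 genes that averaged 1 FPKM or more, 20 were highest in library 3, against 38.8% of all 17764 genes. rlbp1a, a retinaldehyde-binding protein gene of the pigment epithelium, differed less, at 229, 195 and 196 FPKM. Blood genes were high in the same library. The adult beta globin gene ba1 read 1318, 365 and 569 FPKM, and 6 of the 7 blood genes that averaged 1 FPKM or more were highest in library 3, against the same 38.8%. ttr, a pigment epithelium marker in mammals, had at most 1.09 FPKM.

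The 22 matched genes of Müller glia took 0.459%, 0.366% and 0.653%, or 0.492% ± 0.146 (SD, n = 3). ptgdsb, a prostaglandin D synthase gene, made up 28.5% of the list, with 635, 652 and 2081 FPKM, so it was over 3-fold higher in library 8 than in either other library. Without ptgdsb the list took 0.385%, 0.282% and 0.383%. Keratin genes were high in the same library, and the part of other tissue in ptgdsb was not tested. apoeb, an apolipoprotein gene, read 1205, 809 and 1306 FPKM. rlbp1b, the retinaldehyde-binding protein gene of Müller glia in zebrafish, read 934, 350 and 718 FPKM. cahz, a carbonic anhydrase gene, read 372, 389 and 299.6 FPKM. slc1a2a, a glutamate transporter gene, read 161, 115 and 88.1 FPKM, whereas slc1a3b, another one, stood at 0.203, 0.164 and 0.452 FPKM. gfap, the glial filament gene, was at 25.2, 31.9 and 23.3 FPKM; it was named after its values were seen. The glutamine synthetase genes glula and glulb were not matched.

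Genes of the ribbon synapse, where photoreceptors and bipolar cells release glutamate, took 0.573% ± 0.079. snap25b, a membrane fusion protein gene, led with 763, 863 and 716 FPKM, and its copy snap25a read 366, 444 and 411 FPKM. cplx3b and cplx4a, complexin genes of ribbon synapses, read 383, 392 and 270 FPKM and 234, 475 and 310 FPKM. Of the 28 genes 19 were highest in library 4, against 30.5% of all 17764 genes, and 20 were lowest in library 8, against 43.0%.

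Bipolar cell genes took 0.350%, 0.369% and 0.258%, or 0.326% ± 0.060. A single gene, cabp5a, which encodes a calcium-binding protein of bipolar cells, made up 55.53% of that at 1858, 1544 and 977 FPKM. Without it the list took 0.146% ± 0.022. The next were cabp2a, a related calcium-binding protein gene, at 186, 192 and 134 FPKM and gnao1b, a G protein alpha subunit gene, at 153, 173 and 125 FPKM. The transcription factor gene vsx1 was steadier at 92.3, 102 and 88.1 FPKM.

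Amacrine cell genes took 0.221%, 0.250% and 0.216%, or 0.229% ± 0.018, a smaller relative spread than for the photoreceptor lists. gad1b, which makes the transmitter GABA from glutamate, read 771, 717 and 581 FPKM and held 37.6% of the list. gad2, another GABA-making enzyme gene, read 116, 135 and 132 FPKM, and slc6a1b, a GABA transporter gene, read 192, 191 and 159.5 FPKM. calb2b, a calretinin gene, read 173, 185 and 133 FPKM. The neuropeptide gene vip read 62.5, 84.0 and 80.6 FPKM. ptf1a, a transcription factor gene of developing amacrine and horizontal cells, and th2 had no fragment in any library.

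Ganglion and horizontal cell genes were scarcer. The 22 ganglion cell genes took 0.075%, 0.072% and 0.067%. sncga, a gamma synuclein gene, read 159.6, 133 and 98.4 FPKM. rbpms2b and rbpms2a, RNA-binding protein genes that mark ganglion cells, read 132, 93.6 and 115 FPKM and 100.2, 88.5 and 74.1 FPKM. The 10 horizontal cell genes took 0.020%, 0.020% and 0.016%, led by the connexin gene cx52.6 at 68.7, 43.6 and 32.4 FPKM. ompb had no fragment in any library. Shares of lists of different length and choice are sums over named genes and do not give cell numbers.

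Markers of several other tissues differed between the libraries. Oligodendrocyte genes took 0.027%, 0.080% and 0.022%, with the myelin gene mbpa at 164, 524 and 111 FPKM, so that library 4 stood above both others. Skeletal muscle genes took 0.008%, 0.037% and 0.029%, and all 8 that averaged 1 FPKM or more were lowest in library 3, against 28.0% of all genes. ckmb, a muscle creatine kinase gene, read 19.6, 73.1 and 43.9 FPKM. Microglial genes took 0.079%, 0.047% and 0.070%, with 10 of 15 highest in library 3, against 38.8% of all genes. The antigen presentation gene cd74a read 155, 94.3 and 263 FPKM. Vascular genes took 0.019%, 0.015% and 0.021%.

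Copies of a pair were compared within each library as the a copy minus the b copy on the log2(FPKM + 1) scale, with limma's test of a difference beyond 2-fold and Benjamini-Hochberg adjustment at 0.05. Pairs are symbols alike except for a last letter a or b. Some are distinct genes or subunits rather than duplicates, such as eif5a and eif5b, hexa and hexb, or pde6a and pde6b. How many was not counted, and the word copy stands here for either member of a symbol pair. Of 1847 pairs with a summed mean of at least 1 FPKM, 640 (34.7%) differed beyond 2-fold. The a copy was higher in 362 (19.6%) and the b copy in 278 (15.1%). In 1514 pairs (82%) the same copy was higher in all 3 libraries. The higher copy held a median of 73.3% of a pair's FPKM. It held over 90% in 398 pairs and under 60% in 410. Among the 252 pairs with a summed mean of at least 100 FPKM, 126 (50%) passed, against 24% at 1 to 10 FPKM and 36.1% at 10 to 100 FPKM. The higher copy's median share did not rise in the same way. It was 78.3% at 1 to 10 FPKM, 71.4% at 10 to 100 and 75.3% at 100 or more. The share that passed is therefore no measure of how uneven abundant pairs are. Of the 640 pairs, 634 had the same order in control library 5 and 619 in control library 7, neither of which entered the test. These pairs were picked for a gap beyond 2-fold, so a kept order largely follows from that choice. With all 5 control libraries, 1323 of 1863 pairs (71%), passed or not, had the same higher copy in every library.

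Among pairs with a summed mean of at least 100 FPKM, several of the widest gaps were in enzyme genes. aldoca, an aldolase gene, read 0.740, 0.128 and 0.350 FPKM, against 1289, 1470 and 909 FPKM for aldocb, a gap of -9.76 ± 0.256 in log2 units (SE, with limma's adjusted p = 5.18e-06). ckba read 23.1, 15.5 and 17.1 FPKM, against 11551, 9184 and 6520 FPKM for ckbb, a difference of -8.84 ± 0.221 (limma adjusted p = 5.18e-06). rpe65a read 1090, 291 and 484 FPKM, against 0.668, 0.432 and 0.593 FPKM for rpe65b, a difference of 8.43 ± 0.337 (limma adjusted p = 1.61e-05). gad1a read 5.05, 2.57 and 0.589 FPKM and gad1b read 771, 717 and 581 FPKM, a difference of -7.72 ± 0.314 (limma adjusted p = 1.61e-05). aldoaa read 550.2, 664 and 385 FPKM, against 2.71, 8.06 and 6.89 FPKM for aldoab, a difference of 6.34 ± 0.326 (limma adjusted p = 3.67e-05). In the 4 pairs given before this one the higher copy was over 100 times the lower one in every library.

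Among the 15 widest pairs, 6 had a copy without a fragment in any library, so no fold is given for them. The selenoprotein gene sepp1a read 359, 441 and 563 FPKM with sepp1b at 0. cycsb, a cytochrome c gene, read 272, 333 and 231 FPKM with cycsa at 0. syt1a, a calcium sensor gene of synaptic vesicle release, read 188, 225 and 168 FPKM with syt1b at 0. The other such pairs were s100a10, ctsl and anxa2, in which s100a10b, ctsla and anxa2a carried all fragments.

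**Figure D4:**
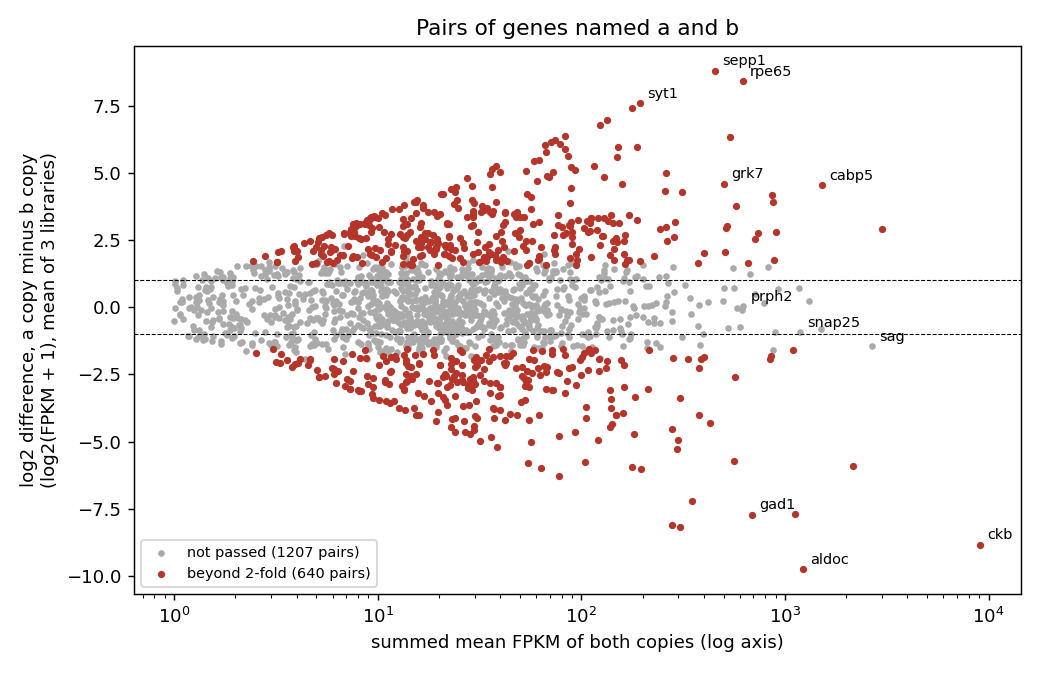
Log2 difference of the a copy minus the b copy on the log2(FPKM + 1) scale, as the mean of libraries 3, 4 and 8, against the summed mean FPKM of both copies on a log axis, one point per pair of 1847. Red points are the 640 pairs that differed beyond 2-fold in limma's test, dashed lines mark 2-fold, and the points fan out as the pair's level rises, since the pseudocount of 1 bounds the gap of a low pair.

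In other abundant pairs both copies stood at like levels. The smallest differences were those of itm2c, bok, sdha and sdhb, prph2, tulp1, sub1, pfkp, ewsr1, srsf5 and abca4. tulp1a, a photoreceptor gene needed for protein transport to the outer segment, read 107, 91.1 and 76.1 FPKM, against 88.7, 99.6 and 77.1 FPKM for tulp1b, a log2 difference of 0.04 ± 0.206. abca4a, a retinoid flippase gene of outer segments, read 148, 126 and 74.8 FPKM, against 122, 117 and 79.5 FPKM for abca4b, a difference of 0.09 ± 0.204. A difference that does not pass this test is not shown to be below 2-fold.

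Gene families of the same function were described by each member's share of the summed FPKM of its matched members. Of 32 families with at least 2 matched members, 27 had the same leading member in all 3 libraries, and the leader held a median of 67.4%. All 27 leaders also led in control library 5, and 25 did in control library 7. They were picked for leading in all 3 libraries, so this follows in part from that choice. slc1a2a held 99.9%, 99.9% and 99.5% of the FPKM of slc1a2a and slc1a3b, the matched glial glutamate transporters; slc1a2b and slc1a3a were not matched. ckbb held 91.7%, 89.6% and 89.2% of 7 creatine kinases, and gapdhs held 98.5%, 94.1% and 92.9% against its copy gapdh. Other leaders held less but at steady shares. aldocb held 70.0%, 68.6% and 69.8% of aldolase FPKM, gnb3b held 74.6%, 73.3% and 75.8% of transducin beta FPKM, and sagb held 70.3%, 74.2% and 75.1% of rod arrestin FPKM. Among enzymes of glucose use, ldhba held 87.9%, 89.4% and 85.1% of the pair of lactate dehydrogenase B genes, and tpi1b held 65.5%, 62.7% and 57.1% of the triosephosphate isomerases. Of 4 enolases eno1a held 50.3%, 48.0% and 44.4%, with eno1b next at 30.3%, 31.0% and 25.6%, so enolase RNA was spread over more members than aldolase RNA.

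Genes of neurons, glia and general cell function also differed in how far 1 member led. gad1b held 86.5%, 83.9% and 81.4% of glutamate decarboxylase FPKM, with gad2 at 13.0%, 15.8% and 18.5%. slc17a7a, a vesicular glutamate transporter gene, held 76.0%, 75.02% and 72.7% of 5 such genes, while slc17a6b, the leading one of the type known from ganglion cells, held 7.14%, 5.55% and 7.19%. rlbp1b held 80.3%, 64.2% and 78.5% against the pigment epithelium copy rlbp1a, and was lowest in library 4. The pair of melanosome genes was more even, with pmela at 68.5%, 64.1% and 57.0%. rbpms2b held 56.8%, 51.4% and 60.9%, so both copies of this ganglion cell gene carried much of the RNA. For the cytoplasmic actins actb2 held 71.2%, 74.6% and 77.7%. eef1a1l1, a translation elongation factor gene, held 70.0%, 57.4% and 79.6%. The sodium pump was split between atp1a1b, at 41.1%, 35.7% and 46.4%, atp1a1a.1, at 33.7%, 30.04% and 25.9%, and atp1a3a, at 25.0%, 33.8% and 27.4%.

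The 5 families whose leader differed between libraries were the green opsins, the cone opsins as a whole, the opsin kinases, the recoverins and the ribbon complexins. In the complexin family cplx4b held 31.8%, 13.2% and 12.4% and was first in library 3 alone, while cplx4a, with 19.1%, 37.3% and 34.01%, was first in libraries 4 and 8.

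Spread between the libraries was described gene by gene. Among the 1809 genes that averaged 50 FPKM or more the median coefficient of variation (CV, SD over mean) was 18.4%; counting alone would give 4.46%, which separate samples are bound to exceed. Over libraries 3 and 4 alone the median was 11.8%. The CV did not keep falling with level. Its median was 30.6% at 1 to 10 FPKM, 18.1% at 10 to 50, 17.5% at 50 to 200, 19.9% at 200 to 1000 and 25.0% above 1000 FPKM. Of these 1809 genes, 83 had a CV under 5% and 34 had one over 100%.

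Of the 10 genes with a symbol and the smallest CV, 4 are given. yipf3, a gene of a Golgi membrane protein, read 54.6, 54.8 and 54.6 FPKM. ndufs6, a subunit of respiratory complex I, read 171, 170 and 171 FPKM, and cox4i1, a nuclear-encoded subunit of cytochrome c oxidase, read 583, 579 and 592 FPKM. isca1, an iron-sulfur cluster assembly gene, read 113, 114 and 113 FPKM. The CV of each of the 10 steadiest genes lay below the counting CV, so the fragments behind them cannot show how steady they are. With more fragments, fth1a, a ferritin heavy chain gene, read 805, 824 and 841 FPKM, a CV of 2.17% beside a counting CV of 2.0%.

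Of the 10 genes with a symbol and the largest CV, 8 were highest in library 8. krt97, a keratin gene, read 182, 183 and 1509 FPKM. icn2, a copy of the S100-type gene icn, read 133, 133 and 1149 FPKM. The chemokine gene ccl27b read 51.9, 45.1 and 359 FPKM, resting on 18, 20 and 107 fragments. dap1b read 0, 2.31 and 286 FPKM on 0, 1 and 83 fragments. The microRNA genes mir729 and MIR181B1 had 2 fragments and 1 fragment in all and belong to the class of very short genes. The share of genes highest in library 8 did not follow level in order. It was 37.8% at 1 to 10 FPKM, 22.5% at 10 to 50, 15.5% at 50 to 200, 23.1% at 200 to 1000 and 45.5% above 1000 FPKM.

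**Figure D5:**
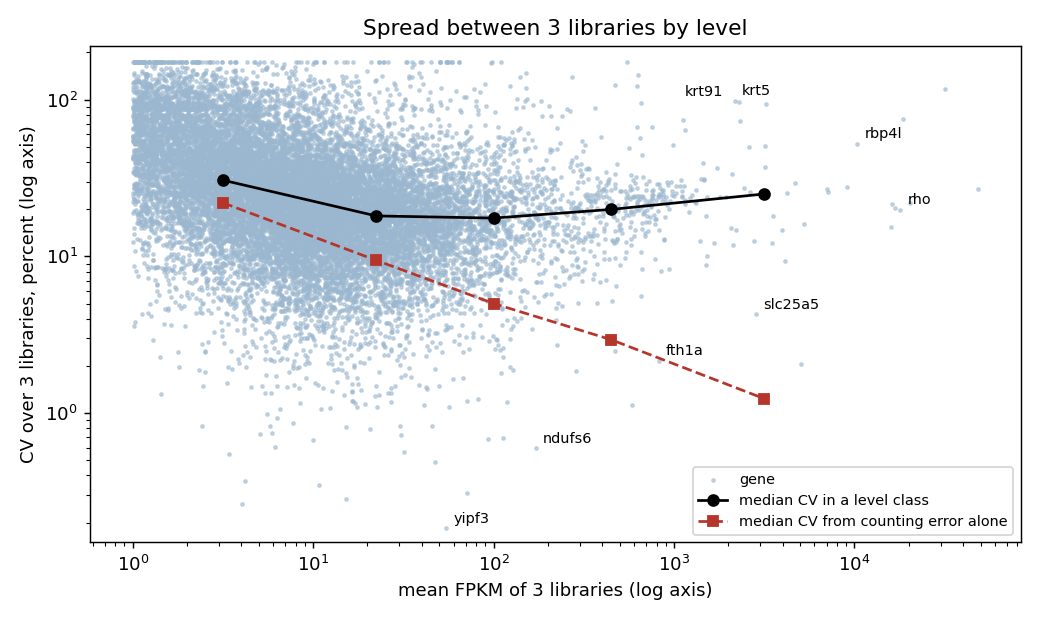
CV over libraries 3, 4 and 8, in percent, against mean FPKM, both on log axes, one point per gene that averaged 1 FPKM or more, with the median CV of 5 level classes (black) and the median CV that counting alone gives (red, dashed). The black line stays between 17.5% and 30.6% while the red one falls to 1.24%, and the keratin genes krt5 and krt91 lie near 98% in the class above 1000 FPKM.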

How the data were processed

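Adult retinal total RNA was read in pairs of 100 bases, 12 libraries in each lane, per the labels' protocols. The submitters' processing notes name Zv9 as the build and list Cuffnorm, TopHat, FastQC, cutadapt and CASAVA 1.8.2. The annotation, strand setting and further versions were not stated. The authors' FPKM values in the deposited table are scaled to gene length and library size, per the submitters' processing notes. A second deposited table holds a signal, the fragment numbers divided by a factor of each library. The step between its low values gave fragments, and 98.5% to 98.6% of values came within 0.01 of a whole multiple. No count model was used. Near-identical gene copies may share fragments.

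Each table also has 1 unnamed column of values, which was left unused, and control replicate 1 is not analysed here. The deposited table gave symbols for 20495 genes and a list of names gave 1553 more, which left 10626 without one. Older symbols were looked up in the RefSeq table of assembly GRCz12tu. Implied length is the ratio of signal to FPKM, scaled by the mean scaled total of the 5 named control libraries, on the assumption that this total stands behind the FPKM values.

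The only test was limma 3.58.1 (R 4.3.3; treat, beyond 2-fold) on a minus b differences of log2(FPKM + 1), adjusted over 1847 pairs; other values are descriptions over 3 libraries. The pseudocount understates folds of low genes. In simulated data for this comparison (1847 pairs, 5 runs, 200 pairs per fold) 85% of 8-fold and 15% of 3-fold differences and 0% of equal pairs were called. Equal pairs lie far inside the 2-fold limit and no pair was simulated at it. False calls near the limit were therefore not measured. The simulated spread was the same for every pair and independent between the copies. Samples were grouped by the MeHg concentration in the labels.

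Genes named were drawn from the 30 with the highest mean, the leading 6 of each list and members at or near 0. They also came from families, the 15 widest and 10 closest pairs, and the 10 genes of largest and of smallest CV with a symbol. Members and lists were chosen with earlier results of these data known. No sequence is shown.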

Additional observations from a re-analysis of the deposited data

How the results depend on the processing

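With 3 libraries, 2838155 to 4160991 fragments and no test across libraries, shares and spreads are descriptions. For pairs differing beyond 2-fold, every alternative run (pseudocount, filters, fragments, all 5 control libraries, each library left out) gave 533 to 805. The 15 named pairs kept their call in all 120 alternatives. Those 15 were picked for the widest gaps in these same libraries, so a kept call largely follows from that choice. Of 88 alternatives for the summaries, which include the pair runs, 68 were labelled unmoved and 20 moved. For the mean FPKM of the top 30 genes, 112 were labelled unmoved and 8 moved. List shares and gene means were labelled unmoved when they shifted by less than 1 SD over the 3 libraries. Leaving out 1 of 3 libraries cannot shift a mean that far, so those runs do not test it. Without library 8, for example, krt91 went from a mean of 2279 to 999 FPKM and was still labelled unmoved. All 8 moves of gene means came with all 5 control libraries. Counts of pairs and of genes were labelled by a wide fold limit instead. The run on fragments called 805 pairs, of which 559 were among the 640, and was labelled unmoved. With all 5 control libraries a mean of 212 genes made 50% of FPKM, against 152 in the main run, also labelled unmoved. Leaving mitochondrial genes out of the total gave 4.77% for rod and 3.67% for cone genes, and 278 genes for 50% of FPKM. Leaving out genes of implied length under 500 bases gave 5.41% for rod, 3.90% for cone, 0.660% for Müller glia and 0.436% for bipolar genes. All 5 control libraries gave 3.38% for rod and 2.75% for cone genes and a median CV of 29.6%. Shares of fragments were 3.89% for cone and 7.88% for mitochondrial genes, and 565 genes made 50% of fragments. Chosen after seeing the data, lists without their leading gene took 1.81% (rod, without rho), 2.22% (cone, without arr3a), 0.210% (pigment epithelium, without rbp4l) and 0.146% (bipolar, without cabp5a). The median CV was 23.6% for genes of at least 1 FPKM, and 11.8% to 17.5% over 2 libraries with each library left out in turn. As an SD of log2(FPKM + 1) values the median was 0.267. That value is in other units than a percent, so its place among the 20 moves says nothing about spread. The cause of each move was not tested, beyond what leaving out a gene or total does by itself. Mitochondrial genes left out of their own total give no value. No paired analysis was possible because all 3 libraries belong to 1 group, so none can be paired across groups; the a and b copies of a pair are compared within a library in the test itself.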
